A study of Mus musculus with 4 samples.

Results

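Colony-stimulating factors and their receptors were followed in single lung and blood cells of mice that bore a subcutaneous melanoma, with or without a further injection of melanoma cells into the spleen. The members were 6 genes of the 32285 in the deposited gene lists, chosen by symbol: the receptor genes Csf3r, Csf1r, Csf2ra, Csf2rb and Csf2rb2, and the ligand gene Csf1. All mice were female C57/Bl6 animals aged 6 to 8 weeks, had their spleen removed on day 0 and were given 250000 B16F10 cells, a mouse melanoma line, under the skin. In the metastasis arm 800000 B16F10 cells had been injected into the spleen just before its removal, a route by which tumour cells reach the liver, and in the sham arm saline had been injected instead. Lungs and blood were taken on day 7, and 1 library was made for each tissue and arm, 4 in all. Lungs were pressed through a 70 uM filter and put through live/dead columns, whereas CD45-positive blood cells were obtained by density centrifugation, so tissue and preparation cannot be told apart. The labels do not say how many mice stand behind a library, and with 1 library per group no test across animals could be made. A difference between arms below is therefore a difference between 2 libraries, and each interval is a 95% interval for counting error only.

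Colony-stimulating factors drive the formation and survival of myeloid cells. G-CSF acts through the receptor encoded by Csf3r and governs the production, release and survival of neutrophils, while the receptor encoded by Csf1r binds M-CSF, the product of Csf1, and IL-34 and is the survival receptor of monocytes and macrophages. The receptor for GM-CSF joins a ligand-specific alpha chain, encoded by Csf2ra, to the common beta chain encoded by Csf2rb, which also serves the IL-3 and IL-5 receptors. The mouse has a second beta chain, encoded by Csf2rb2, that works with the IL-3 receptor alone. Tumours are known to change the output of myeloid cells from bone marrow, and alveolar macrophages depend on GM-CSF.

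In the GENCODE annotation of GRCm38, Csf3r (ENSMUSG00000028859) spans chromosome 4, 126024550 to 126044440, on the plus strand, and Csf2ra (ENSMUSG00000059326) spans chromosome 19, 61223957 to 61228429, on the minus strand. Csf1 (ENSMUSG00000014599) spans chromosome 3, 107741048 to 107760469, on the minus strand. Csf2rb (ENSMUSG00000071713; 78325752 to 78353847, plus strand) and Csf2rb2 (ENSMUSG00000071714; 78282507 to 78305721, minus strand) are neighbouring copies of one gene on chromosome 15. The longest open reading frames of their longest coding transcripts were identical at 95.2% of 2631 aligned bases. Of the 151-base windows of the Csf2rb transcript, 3.43% also occurred unchanged in a Csf2rb2 transcript, and of the last 500 bases of either transcript no such window was shared, although they aligned at 83.1% identity. Reads from these copies could still be assigned to the wrong gene where they differ by few bases, so values of Csf2rb and Csf2rb2 are uncertain to that extent.

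RefSeq promoter windows, 250 bases before to 50 bases after the annotated start, were found for 4 of the 6 members on GRCm38.p6: Csf3r, Csf2ra, Csf2rb2 and Csf1. Csf2rb and Csf1r had no entry used here. Sequence is shown for Csf3r and Csf1, which were both lower in blood neutrophils of the metastasis arm, and for Csf2rb2, which was higher there. The letters GAGGAAG, a core recognised by PU.1 and other ETS factors, and the forms TTNNGNAAT, TTNNGNAAG, TGNNGNAAT and TGNNGNAAG, which are C/EBP-like, were searched on both strands. PU.1 and the C/EBP family are the main factors of myeloid gene expression. The ETS letters occurred in 13.6% and the C/EBP-like forms in 45.4% of all 32851 promoter windows of 300 bases. Csf3r held 1 match of each, Csf2ra held 2 ETS matches and no C/EBP-like match, and Csf1 held neither. Csf2rb2 held 2 ETS and 3 C/EBP-like matches, and each of its ETS matches lies within a C/EBP-like match. GAGGAAG fits the end of TTNNGNAAG and TGNNGNAAG, so in these places the same letters were counted under both names. A match is a description of the letters in a window, not of a bound site. The RefSeq start of Csf3r lies downstream of the GENCODE start, and both Csf3r matches fall between these starts. For Csf3r the 141 bases before the GENCODE start (chr4:126024409-126024549, plus strand) are followed by the 2 matches with their flanking bases (chr4:126024564-126024588 and chr4:126024637-126024663). For Csf2rb2 (chr15:78305722-78305971, minus strand) and Csf1 (chr3:107760470-107760719, minus strand) the 250 bases before the start are given. All run 5′ to 3′ on the strand of the gene, and capitals mark matches.
Csf3r upstream: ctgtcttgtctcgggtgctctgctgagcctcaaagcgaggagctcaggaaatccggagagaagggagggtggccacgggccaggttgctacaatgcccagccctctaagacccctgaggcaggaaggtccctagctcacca
Csf3r ETS match: ccttcctgaGAGGAAGgggctgtct
Csf3r C/EBP-like match: ccaggaaggTGTCGCAATtctgggtcc
Csf2rb2 upstream: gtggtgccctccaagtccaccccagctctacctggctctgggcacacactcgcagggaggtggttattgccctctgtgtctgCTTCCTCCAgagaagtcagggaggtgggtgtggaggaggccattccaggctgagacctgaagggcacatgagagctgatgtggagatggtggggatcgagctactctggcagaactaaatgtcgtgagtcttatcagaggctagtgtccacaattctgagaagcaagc
Csf1 upstream: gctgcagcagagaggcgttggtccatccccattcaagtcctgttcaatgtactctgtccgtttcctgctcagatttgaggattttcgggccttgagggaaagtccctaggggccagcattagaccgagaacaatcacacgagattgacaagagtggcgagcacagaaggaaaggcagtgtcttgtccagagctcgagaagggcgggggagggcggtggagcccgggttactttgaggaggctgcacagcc

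The 4 matrices held 18115 to 36125 barcodes and 112079231 to 132540945 unique molecular identifiers (UMIs, which count captured RNA molecules), of which 43.7% to 78.6% came from haemoglobin genes. After filtering, 12969, 13443, 8483 and 12274 cells remained in metastasis lung, sham lung, metastasis blood and sham blood. Between 31 and 47 barcodes of kept cells were shared by any 2 libraries. Each cell was assigned to a class from marker UMIs that include none of the 6 members. Neutrophils numbered 1290, 53, 2435 and 427 in that order (9.95%, 0.394%, 28.7% and 3.48% of kept cells), and all 12 neutrophil markers were detected in the class in every library. Classical monocytes numbered 78, 32, 276 and 209 and non-classical monocytes 218, 100, 73 and 186, again with all of their own 8 and 10 markers detected in every library. Epithelial cells (150 and 93) and endothelial cells (43 and 110) were present in the lung libraries although the samples are described as enriched for CD45-positive immune cells. Levels are counts per 1000000 UMIs of the class without haemoglobin (CPM). A gene was called measured where the pair of libraries together gave 100 UMIs or more and their mean level reached 10 CPM.

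The 6 genes were found in overlapping sets of classes. Csf3r was mainly a neutrophil transcript: neutrophils held 89.0% of its UMIs in metastasis lung, 59.8% in sham lung, 91.2% in metastasis blood and 75.1% in sham blood. Csf1r was mainly found in monocytes, and non-classical monocytes were above classical monocytes in all 4 (714 against 393 CPM in metastasis lung, 693 against 396 in sham lung, 668 against 251 in metastasis blood and 781 against 346 in sham blood). Csf2ra was close to even over neutrophils and both monocyte classes, between 135 and 284 CPM in all 12 class and library pairs. Among classes of at least 9 cells, Csf2rb was highest in basophils or mast cells, at 817 to 1017 CPM, and lay between 73.6 and 287 CPM in neutrophils and monocytes. Csf2rb2 was also highest in basophils or mast cells, at 257 to 476 CPM, and reached at most 35.2 CPM in neutrophils and monocytes. Csf1 was highest in basophils or mast cells, at 816 to 1332 CPM, followed in blood by neutrophils.

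**Figure D1:**
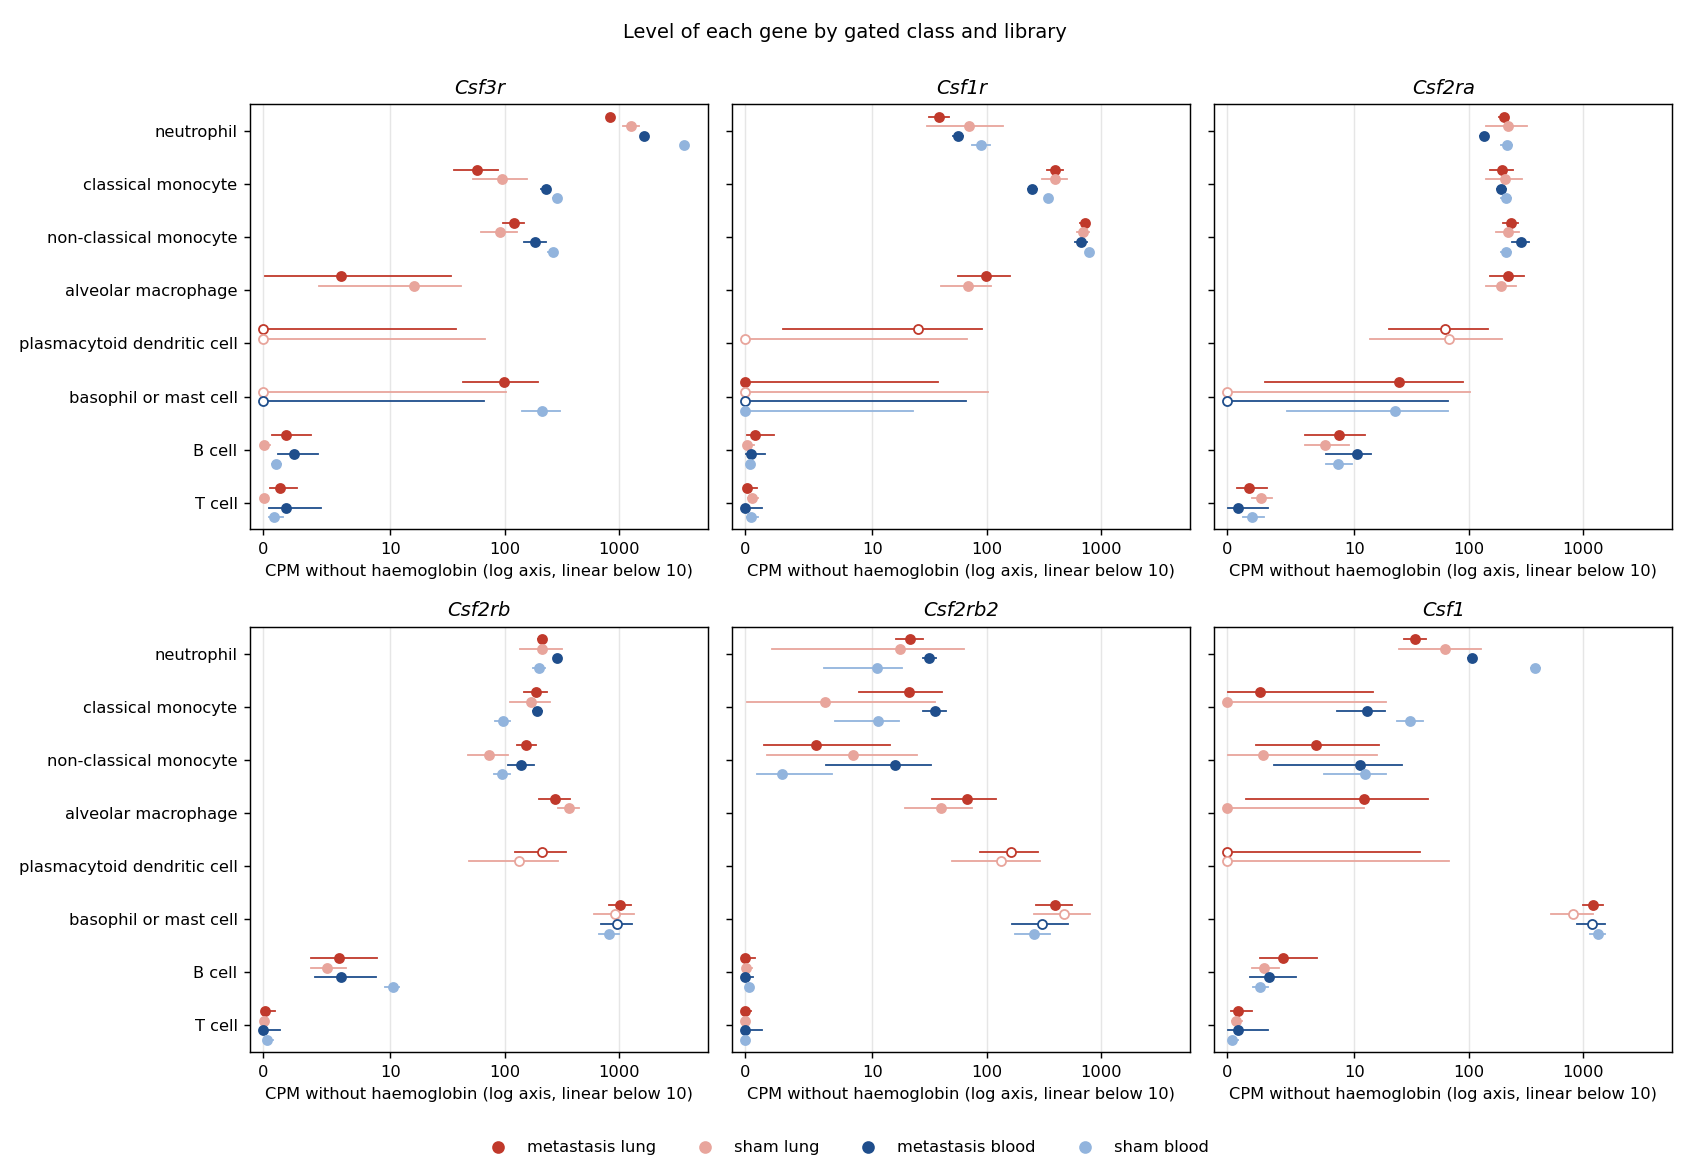
CPM without haemoglobin (x axis, logarithmic above 10 and linear below) of each gene in 8 gated classes (y axis) and 4 libraries (colours). Lines are 95% Poisson intervals for counting error, and hollow points mark classes of 9 to 19 cells. Csf3r stands highest in neutrophils of sham blood (3697 CPM) and Csf1 in basophils or mast cells (816 to 1332 CPM).

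T cells were taken as the class that should lack the receptors, since RNA free in the suspension leaves UMIs in cells that do not express a gene. Csf3r, Csf1r and Csf2rb were at most 1.79, 0.540 and 0.302 CPM in T cells of any library, Csf2ra was at most 2.65 CPM, and Csf2rb2 had no UMI in T cells. B cells, used as the reference for Csf1, held 2.59 to 4.42 CPM of it. Values of the genes in neutrophils and monocytes described below lie above these levels except where said.

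**Figure D2:**
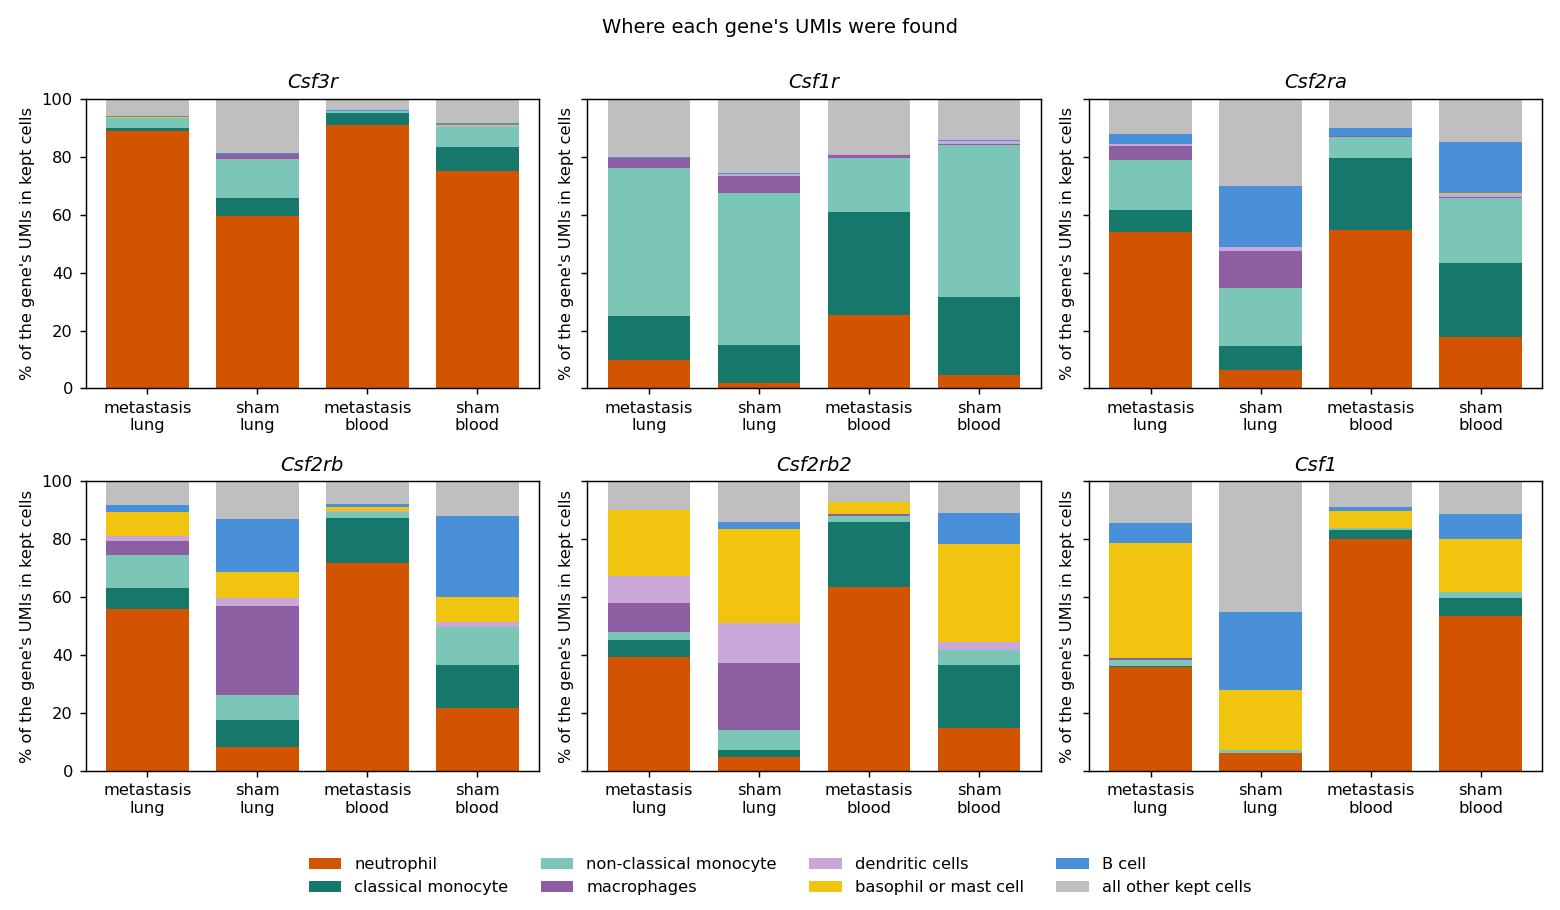
Share of each gene's UMIs in kept cells (y axis, percent) that fell in each class, 1 bar per library. Neutrophils hold 71.9% of Csf2rb UMIs in metastasis blood and 21.6% in sham blood, beside 2435 and 427 neutrophils.

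The class that held most UMIs of a gene differed between arms beside the number of neutrophils. Neutrophils held 55.8% of Csf2rb UMIs in metastasis lung, where alveolar macrophages held the largest share in sham lung (30.6%). In blood, B cells held the largest share of Csf2rb UMIs in the sham library (28.0%, beside 7988 B cells) and neutrophils in the metastasis library (71.9%). For Csf1 the neutrophil share was 80.1% in metastasis blood and 53.4% in sham blood, and for Csf2ra it was 54.8% and 18.0%.

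Csf3r, the receptor for G-CSF, was lower in neutrophils of the metastasis arm in both tissues. In blood it stood at 1633 CPM (1603 to 1663; 11532 UMIs) in the metastasis library and 3697 CPM (3595 to 3801; 4999 UMIs) in the sham library, a log2 ratio of -1.18 (-1.23 to -1.13). In lung it stood at 831 CPM (796 to 867) and 1266 CPM (1068 to 1490), a log2 ratio of -0.61 (-0.85 to -0.35), where the sham value rests on 144 UMIs from 53 cells. In a clustering of all cells made without the 6 genes, blood neutrophils of the arms lay mostly in different clusters: 1 held 1791 metastasis and 3 sham cells, and another held 633 metastasis and 429 sham cells. Within the cluster that both blood libraries filled, gated neutrophils (631 and 421 cells) held 2895 against 3736 CPM of Csf3r, a log2 ratio of -0.37 (-0.43 to -0.31), which is under 1.5-fold. The order of the 4 libraries over all neutrophils was sham blood, metastasis blood, sham lung, metastasis lung, and no 2 neighbouring intervals overlap. The share of neutrophils with a Csf3r UMI was 69.5% in metastasis lung, 81.1% in sham lung, 91.1% in metastasis blood and 99.5% in sham blood. When each cell was thinned to 1000 UMIs the shares were 53.0%, 68.2%, 75.1% and 97.1%, in the same order of libraries. Cells under 1000 UMIs without haemoglobin were left out here and from every thinned share below. Thinned shares therefore cover only the deeper cells of each class. T cells had a Csf3r UMI in at most 0.687% of cells of any library, with median depths of 2796 to 5407 UMIs against 1542 to 2954 in neutrophils.

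Of the 6 genes, all were measured in blood neutrophils. Csf3r, Csf1r, Csf2ra and Csf1 were at least 1.5-fold lower in the metastasis library, where 18.2% of the 5606 measured genes were lower by that much, and Csf2rb2 was at least 1.5-fold higher, where 19.5% of genes were. The median log2 ratio was -0.67 over the 6 genes and -0.02 over all measured genes. In lung neutrophils 4 were measured. Csf3r and Csf1r were at least 1.5-fold lower, beside 12.7% of 2815 measured genes, and none was higher by that much, beside 18.5%. The median of the 4 was -0.36, against 0.02 over all measured genes. With haemoglobin counted in the total, the split of all genes turned from 522 higher and 357 lower to 670 and 207 in lung neutrophils, and from 1091 and 1021 to 728 and 1467 in blood neutrophils.

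**Figure D3:**
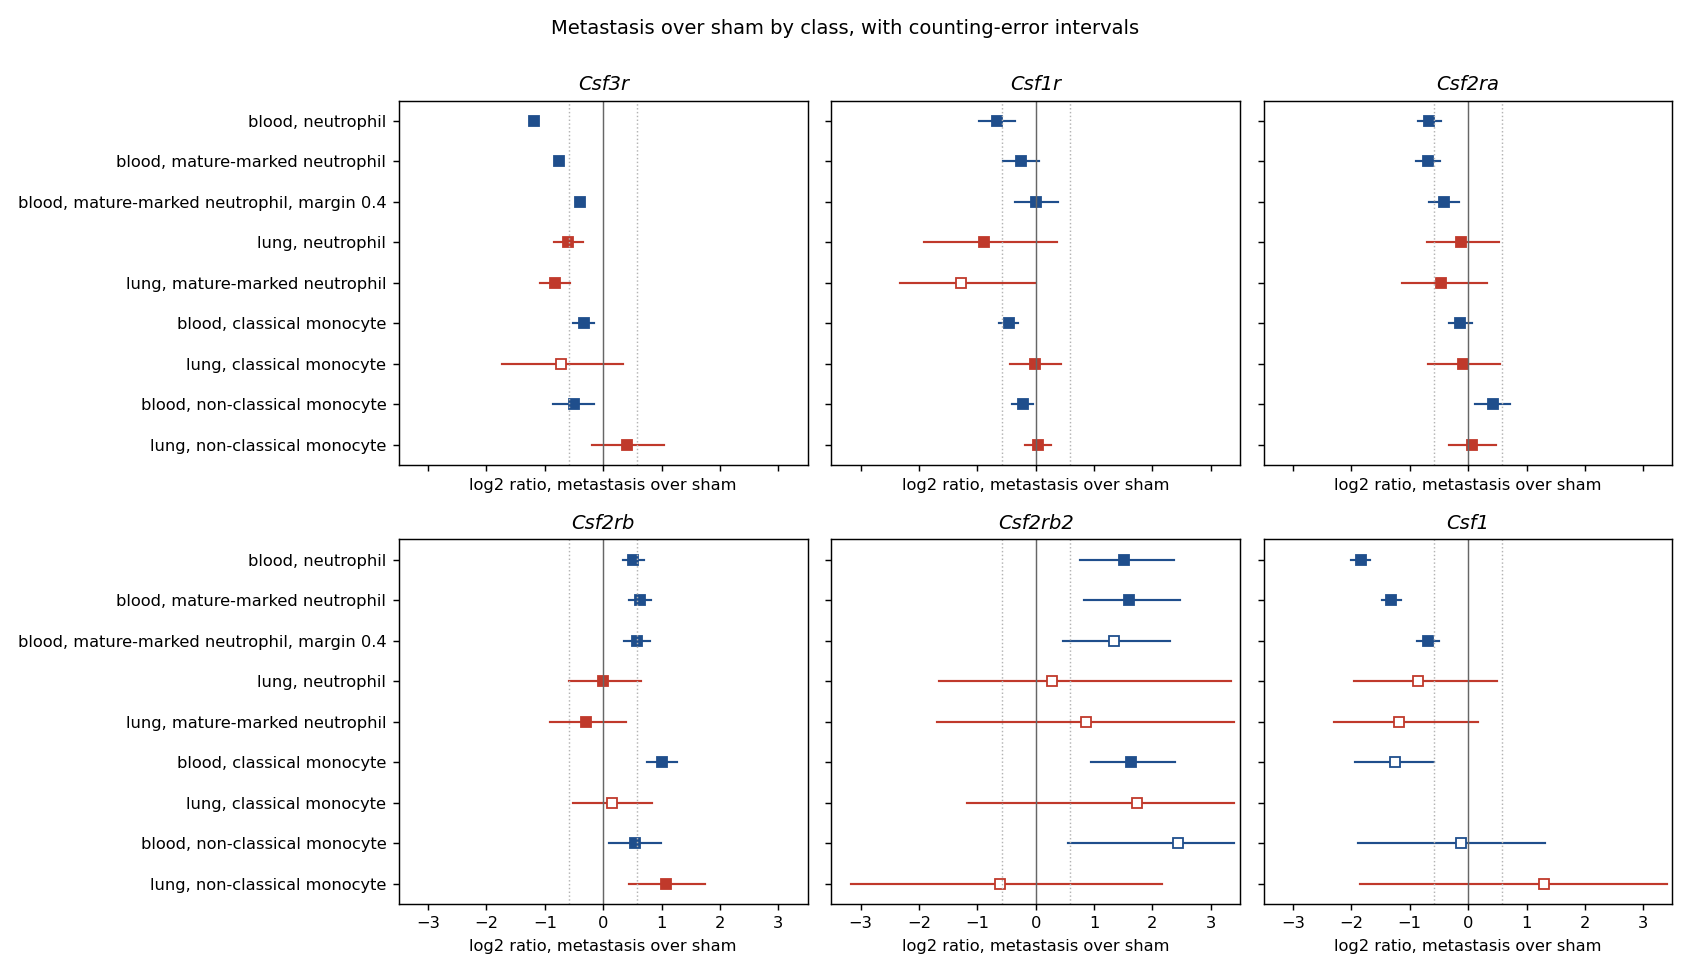
Log2 ratio of metastasis over sham (x axis) for each gene by class (y axis), blue for blood and red for lung. Lines are 95% counting intervals, clipped at the frame, hollow squares mark genes that were not measured by the UMI and CPM limits, and dotted lines mark 1.5-fold. Csf3r and Csf1 lie left of zero in blood neutrophils (-1.18 and -1.84) and Csf2rb lies right of zero in blood classical monocytes (1.01).

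Csf1 encodes M-CSF, and neutrophils carried it mainly in blood. It stood at 106 CPM (98.9 to 114; 751 UMIs) in neutrophils of metastasis blood and 381 CPM (349 to 415; 515 UMIs) in sham blood, a log2 ratio of -1.84 (-2.00 to -1.68). Lung neutrophils held 34.0 CPM in the metastasis library and 61.5 CPM in the sham library, the latter from 7 UMIs, which left the lung ratio below the limit for a measured gene. All 4 values were above the 2.59 to 4.42 CPM found in B cells. The share of neutrophils with a Csf1 UMI was 4.5% in metastasis lung, 11.3% in sham lung, 17.4% in metastasis blood and 49.2% in sham blood, and at 1000 UMIs per cell it was 2.99%, 11.4%, 10.4% and 27.0%. Sham blood was thus highest by level and by share, before and after thinning. Classical monocytes held far less Csf1, with 12.9 and 30.9 CPM in metastasis and sham blood and 1 UMI in both lung libraries together.

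The libraries differed in the maturity markers of their neutrophils, and Csf3r differed along this axis. Bone marrow releases immature neutrophils under demand, and granule genes such as Ngp, Camp and Ltf mark the immature stages while Cxcr2 and Il1r2 mark mature cells. Cells in which the share of 9 immature markers with a UMI exceeded that of 8 mature markers were called immature-marked. The immature markers were Ngp, Camp, Ltf, Chil3, Cebpe, Ifitm6, Ltb4r1, Lcn2 and Mmp8. The mature markers were Cxcr2, Il1r2, G0s2, Mxd1, Il1b, Slfn4, Csrnp1 and Nlrp3. Whether these lists follow maturity alone was not tested. They made up 23.1% of neutrophils in metastasis lung (298 cells), 22.6% in sham lung (12 cells), 23.2% in metastasis blood (564 cells) and 0.703% in sham blood (3 cells). These classes are cut from a score per cell, and 11.1%, 7.55%, 19.1% and 0.703% of neutrophils lay within 0.1 of the limit. Sham blood therefore gave almost no immature-marked cells for a comparison.

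Csf3r was lower in immature-marked than in mature-marked neutrophils of every library. Its level was 191 against 1191 CPM in metastasis lung, 180 against 2120 CPM in sham lung, 534 against 2202 CPM in metastasis blood and 491 against 3736 CPM in sham blood. The immature-marked values of the sham libraries rest on 12 cells in lung and 3 in blood, under the limit of 20 cells. Over 6 bins of the mature-marker share minus the immature-marker share, from below -0.2 to 0.6 and over, Csf3r went from 246 to 894, 1611, 2108, 2707 and 3137 CPM in metastasis blood. In metastasis lung the same bins gave 167, 225, 449, 727, 1446 and 2004 CPM. Each step was upward in both libraries. Median depth went the other way from the least to the most mature bin, from 3265 to 1196.5 UMIs per cell in metastasis lung and from 4923 to 2083 in metastasis blood.

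**Figure D4:**
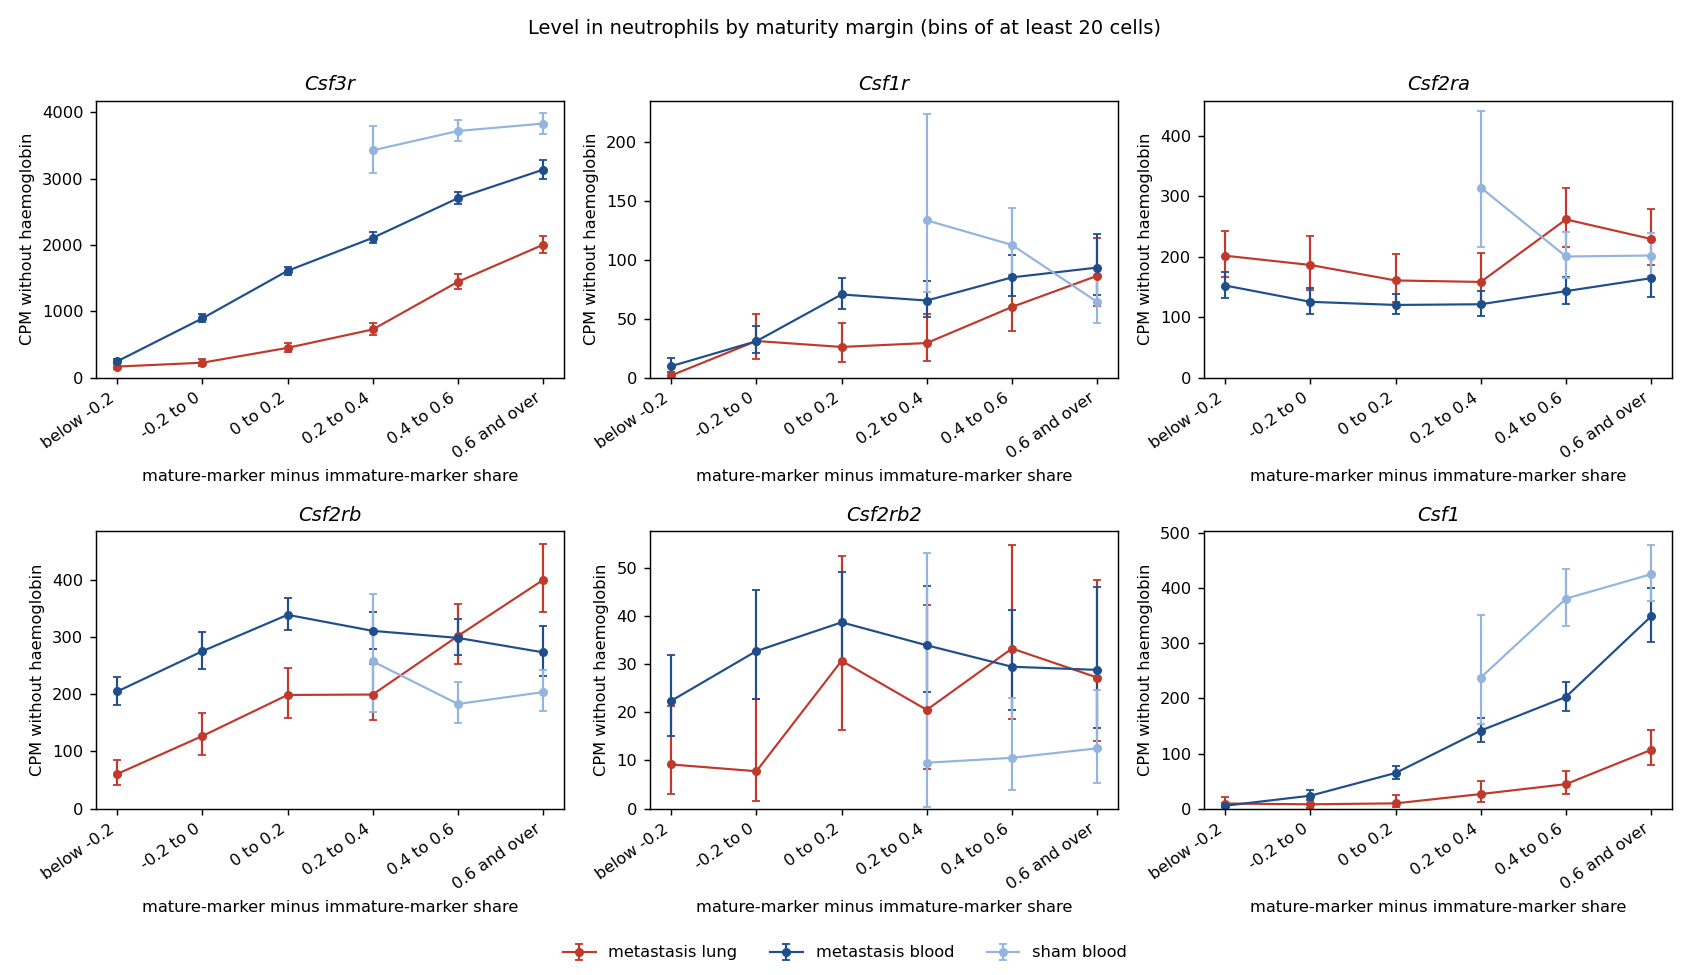
CPM of each gene in neutrophils (y axis) by bins of the mature-marker share minus the immature-marker share (x axis), for bins of at least 20 cells. Points are pooled bins of 1 library and bars are 95% Poisson intervals. Csf3r and Csf1 climb with the margin in metastasis blood (246 to 3137 CPM and 5.23 to 349 CPM) and sham blood lies above it in the bins both hold, while Csf2rb of sham blood lies below.

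Within bins of the same margin the difference in Csf3r between blood libraries was smaller, but depth was not matched. Median depth in the 3 bins that both filled was 2096 against 2455, 2167 against 2999 and 2083 against 2962 UMIs, metastasis against sham. For Csf3r these bins gave 2108 against 3428 CPM (-0.70), 2707 against 3720 CPM (-0.46) and 3137 against 3832 CPM (-0.29), metastasis against sham. The log2 ratio was -0.76 (-0.81 to -0.71) over mature-marked blood neutrophils and -0.41 (-0.46 to -0.35) over those with a margin of at least 0.4, where 766 cells were compared with 375. In lung the corresponding values were -0.83 (-1.08 to -0.57) and -0.48 (-0.74 to -0.21). Csf3r stayed lower in the metastasis library in each of these comparisons.

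Csf1 followed the same axis. In metastasis blood it went from 5.23 CPM in the least mature bin through 23.4, 64.7, 142 and 203 to 349 CPM in the most mature, and in metastasis lung from 9.16 to 107 CPM. The 3 bins filled in both blood libraries gave 142 against 238 CPM, 203 against 381 CPM and 349 against 426 CPM, with log2 ratios of -0.75, -0.91 and -0.29. Over mature-marked blood neutrophils the log2 ratio was -1.32 (-1.48 to -1.15), and with a margin of at least 0.4 it was -0.68 (-0.87 to -0.49). In the cluster that both blood libraries filled it was -0.66 (-0.85 to -0.46).

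Csf1r was a minor transcript of neutrophils. It stood at 38.3 CPM in metastasis lung, 70.3 CPM in sham lung, 56.4 CPM in metastasis blood and 89.5 CPM in sham blood, with log2 ratios of -0.88 (-1.91 to 0.37) in lung and -0.67 (-0.96 to -0.36) in blood. The lung interval spans zero. In the 3 bins that both blood libraries filled, Csf1r stood at 65.3 against 133 CPM (-1.03, -1.86 to -0.09), 84.95 against 112 CPM (-0.40, -0.87 to 0.07) and 93.3 against 64.2 CPM (0.54, -0.07 to 1.16). The direction turned in the most mature bin, and over the last 2 bins together, a margin of at least 0.4, Csf1r was 87.8 against 86.9 CPM (0.01, -0.35 to 0.39). In the cluster that both blood libraries filled, its ratio was -0.16 (-0.53 to 0.21).

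The chains of the GM-CSF receptor differed from each other in blood neutrophils. Csf2ra stood at 202, 220, 135 and 214 CPM in metastasis lung, sham lung, metastasis blood and sham blood, lower in metastasis blood (-0.67, -0.86 to -0.47) and with no difference beyond counting error in lung (-0.12, -0.70 to 0.52). Csf2rb stood at 211, 211, 287 and 200 CPM, higher in metastasis blood (0.52, 0.33 to 0.71) and with a lung interval that spans zero (-0.00, -0.59 to 0.65). Csf2rb2, followed here after its values were seen because it lies under 50 CPM, stood at 31.6 CPM (223 UMIs) in metastasis blood and 11.1 CPM (15 UMIs) in sham blood (1.51, 0.76 to 2.37). Of the blood libraries, the metastasis library was thus lower for the alpha chain and higher for both beta chains.

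Neither Csf2ra nor Csf2rb followed maturity as Csf3r did in blood. In metastasis blood Csf2rb was 205 CPM in the least mature bin, 339 CPM in the third and 273 CPM in the most mature, and Csf2ra lay between 120 and 164 CPM in all 6 bins. In metastasis lung Csf2rb did climb, from 60.5 CPM in the least mature bin to 399.5 CPM in the most mature. Over mature-marked blood neutrophils Csf2ra was lower (-0.69, -0.89 to -0.48), but with a margin of at least 0.4 it was under 1.5-fold (-0.42, -0.68 to -0.16). In the 3 bins that both blood libraries filled, the Csf2ra ratio was -1.37 (-1.93 to -0.78), -0.49 (-0.84 to -0.13) and -0.30 (-0.69 to 0.10), so the interval spans zero in the most mature. In the cluster that both filled, Csf2ra was -0.20 (-0.44 to 0.05), Csf2rb 0.33 (0.10 to 0.56) and Csf2rb2 0.99 (0.07 to 1.97). Over mature-marked blood neutrophils Csf2rb and Csf2rb2 were higher (0.63, 0.44 to 0.82, and 1.60, 0.83 to 2.47). In that class 2 of the 6 genes were at least 1.5-fold higher, beside 16.9% of 4960 measured genes, and 3 were lower (Csf3r, Csf2ra and Csf1), beside 13.1%. The median was -0.47 over the 6 genes and 0.02 over all. Of the 3 measured in mature-marked lung neutrophils, Csf3r was lower by 1.5-fold or more, beside 16.3% of 2168 genes, and none was higher, beside 21.2%.

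Platelet transcripts differed between the blood libraries. All 8 platelet markers were detected in neutrophils of both, at a summed 3763 CPM in metastasis blood and 1263 CPM in sham blood, against 6.57 and 26.4 CPM in lung. Among blood neutrophils without any platelet UMI (1261 and 171 cells) the log2 ratio of Csf3r was -1.44 (-1.52 to -1.36), of Csf1 -1.66 (-1.93 to -1.37), of Csf2ra -0.70 and of Csf2rb 0.46 (0.15 to 0.80). Each of these differences was therefore also present in cells without such UMIs.

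Csf1r (ENSMUSG00000024621) is the gene by which monocytes and macrophages are usually told from other cells. In classical monocytes it stood at 393 CPM in metastasis lung, 396 CPM in sham lung, 251 CPM in metastasis blood and 346 CPM in sham blood. The lung libraries did not differ beyond counting error (-0.01, -0.44 to 0.44) and metastasis blood was lower than sham blood (-0.46, -0.63 to -0.30). In non-classical monocytes the ratios were 0.04 (-0.18 to 0.27) in lung and -0.22 (-0.41 to -0.04) in blood. In blood classical monocytes without a platelet UMI (71 and 61 cells) the Csf1r ratio was -0.27 with an interval that spans zero (-0.60 to 0.06).

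Csf2rb was higher in the metastasis library in 3 of the 4 monocyte comparisons beyond counting error. In blood classical monocytes it stood at 193 CPM (433 UMIs) against 96.2 CPM (187 UMIs), a log2 ratio of 1.01 (0.76 to 1.26) that exceeded those of 97.8% of measured genes. In lung non-classical monocytes it stood at 155 CPM (111 UMIs) against 73.6 CPM (26 UMIs), a log2 ratio of 1.07 (0.45 to 1.75) that exceeded those of 99.2% of measured genes. In blood non-classical monocytes it was 140 against 95.5 CPM (0.55, 0.11 to 0.98), and in lung classical monocytes, where it was not measured, 187 against 170 CPM (0.14, -0.51 to 0.84). The metastasis library was higher in all 4 pairs, and the interval spans zero in the last.

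The share of blood classical monocytes with a Csf2rb UMI was 67.4% in the metastasis library and 52.2% in the sham library, and 18.2% and 11.7% at 1000 UMIs per cell. In lung non-classical monocytes the share was 35.8% and 23.0%, and 12.5% and 4.17% when thinned. Csf2rb2 was also higher in blood classical monocytes, at 35.2 CPM (79 UMIs) against 11.3 CPM (22 UMIs; 1.64, 0.94 to 2.39). Csf2ra did not differ there beyond counting error, at 192 against 211 CPM (-0.14, -0.34 to 0.06). In blood non-classical monocytes Csf2ra was 284 against 211 CPM (0.43, 0.12 to 0.72). In lung Csf2ra was 195 against 207 CPM in classical monocytes (-0.09, -0.70 to 0.55) and 232 against 221 CPM in non-classical monocytes (0.07, -0.33 to 0.48), and both intervals span zero.

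Blood classical monocytes carried other cells' transcripts to different degrees. The 8 platelet markers summed to 3199 CPM in metastasis blood and 782 CPM in sham blood, and all 12 neutrophil markers were detected in both, at 9699 and 4297 CPM. Without a platelet UMI the neutrophil markers summed to 841 and 2281 CPM, with Ly6g at 0 in both, and Csf2rb was still higher at 180 against 112 CPM (0.68, 0.16 to 1.21). Csf3r was 228 against 288 CPM in all blood classical monocytes (-0.34, -0.51 to -0.16), where the neutrophil markers were higher in the metastasis library. It was 86.6 against 180 CPM in those without a platelet UMI (-1.05, -1.64 to -0.48), where the markers were lower in that library. What part neutrophil transcripts have in the Csf3r level of monocytes was not tested. In lung classical monocytes Csf3r stood at 57.2 CPM (22 UMIs) in the metastasis library and 94.2 CPM (15 UMIs) in the sham library. Of the 12 neutrophil markers 9 and 5 were detected there, at a summed 669 and 383 CPM, with Cxcr2, Mmp9 and Ly6g at 0 in both. In non-classical monocytes Csf3r was 120 against 90.5 CPM in lung (0.41, -0.19 to 1.04) and 185 against 262 CPM in blood (-0.50, -0.86 to -0.16). The values point opposite ways in the tissues, the lung interval spans zero, and the difference between tissues was not tested. Neutrophil markers summed to 2624, 919, 7438 and 2037 CPM in non-classical monocytes of metastasis lung, sham lung, metastasis blood and sham blood.

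Counted over the genes, 2 of 5 measured in blood classical monocytes were at least 1.5-fold higher (Csf2rb and Csf2rb2), beside 6.51% of 5342 measured genes, and none was lower, beside 4.77%. In lung non-classical monocytes 1 of 4 was higher (Csf2rb), beside 5.27% of 2011 genes, and none was lower, beside 3.08%. Neither of the 2 measured in lung classical monocytes passed 1.5-fold, where 4.21% of 878 genes were higher and 4.56% lower. None of the 4 measured in blood non-classical monocytes did, where 4.96% of 3646 genes were higher and 8.15% lower.

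Basophils or mast cells (28, 9, 14 and 33 cells) carried Csf2rb, Csf2rb2 and Csf1 in every library. Basophils respond to IL-3 through the beta chains. Csf2rb stood at 1017, 918, 963 and 817 CPM in metastasis lung, sham lung, metastasis blood and sham blood, Csf2rb2 at 397, 476, 306 and 257 CPM, and Csf1 at 1215, 816, 1181 and 1332 CPM. Csf1r had no UMI in the class in any library. Csf3r appeared in 2 of 28 cells of metastasis lung and 3 of 33 cells of sham blood, and in no cell of sham lung or metastasis blood. Over all basophils or mast cells of metastasis lung and of sham blood 11 of 12 neutrophil markers were detected, with Ly6g at 0. Whether the cells with Csf3r were those with these markers was not tested. Too few cells were present in sham lung and metastasis blood to compare arms.

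Alveolar macrophages (27 cells in metastasis lung and 37 in sham lung) depend on GM-CSF and carried both chains of its receptor. Csf2ra stood at 220 and 193 CPM and Csf2rb at 275 and 362 CPM, and the Csf2rb ratio of -0.39 had an interval that spans zero (-0.94 to 0.14). Csf1r stood at 97.9 and 68.3 CPM and Csf2rb2 at 67.3 and 40.2 CPM, each from 17 or fewer UMIs a library. Plasmacytoid dendritic cells of the lung (16 and 9 cells) held Csf2rb at 212 and 134 CPM and Csf2rb2 at 162 and 134 CPM. Csf1 was also found in lung fibroblasts or stromal cells (22 and 38 cells), at 92.2 and 128 CPM (-0.47, -1.94 to 0.80), while Csf3r, Csf1r, Csf2rb and Csf2rb2 had no UMI there.

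B cells held Csf2rb at 5.97, 5.02, 6.15 and 10.7 CPM, above the T cells of each library. Some B cells carry the IL-5 receptor, whose alpha chain Il5ra pairs with Csf2rb, and Il5ra stood at 63.9 to 67.3 CPM in B cells of the 4 libraries. In sham blood 115 of 1288 B cells with an Il5ra UMI had a Csf2rb UMI (8.93%; 23.9 CPM), against 144 of 6700 without (2.15%; 6.58 CPM). Median depth was 4163 and 3360.5 UMIs, and at 1000 UMIs per cell the shares were 1.40% and 0.601%. Csf2rb stood at 12.7 against 4.94 CPM in metastasis blood, 7.69 against 4.61 CPM in sham lung and 4.73 against 6.13 CPM in metastasis lung. The counting intervals overlap in each of these libraries, and in metastasis lung only 2 UMIs were counted in cells with Il5ra. At 1000 UMIs per cell the shares were 0.472% against 0.396% in metastasis blood. In lung they were 0.389% against 0.410% in the sham library and 0% against 0.552% in the metastasis library. The order of sham blood was thus not kept in lung.

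Neutrophils of lung and blood differed most in Csf3r and Csf1. Lung over blood, the log2 ratio of Csf3r was -0.97 (-1.04 to -0.91) in the metastasis arm and -1.55 (-1.80 to -1.31) in the sham arm, and with a margin of at least 0.4 it was -0.73 (-0.81 to -0.65) and -0.65 (-0.92 to -0.40). For Csf1 it was -1.65 (-1.98 to -1.32) and -2.63 (-3.95 to -1.58), and with that margin -1.75 (-2.14 to -1.37) and -1.60 (-2.92 to -0.55). Csf2ra was higher in lung neutrophils of the metastasis arm (0.59, 0.43 to 0.74) and its interval spans zero in the sham arm (0.04, -0.61 to 0.63). Csf1r of classical monocytes was higher in lung in the metastasis arm (0.65, 0.38 to 0.91), and in the sham arm the interval spans zero (0.20, -0.20 to 0.57).

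Other ligands of these receptors were rare. Csf3, the gene for G-CSF, gave 37 UMIs in 21 of 1290 neutrophils of metastasis lung (1.63%, 1.01% to 2.48%; 14.3 CPM), at most 6 in a cell, and 7 UMIs in all other kept cells of that library. Sham lung neutrophils held 1 Csf3 UMI in 53 cells (1.89%, 0.05% to 10.1%; 8.79 CPM). The lung log2 ratio of 0.70 had an interval that spans zero (-1.87 to 6.04), and the gene was not measured there. Blood neutrophils held none, which allows up to 0.425 CPM in the metastasis library and 2.22 CPM in the sham library. Of the 21 cells, 11 were mature-marked. Csf2, the gene for GM-CSF, had no UMI in neutrophils, monocytes or B cells of any library. NK cells held 3 Csf2 UMIs in metastasis lung, 7 in sham lung and 1 in metastasis blood. T cells held 5 in sham lung, and epithelial cells held 1 in each lung library. Il3ra, the IL-3 receptor alpha chain, stood at 31.2, 31.4, 25.0 and 28.8 CPM in classical monocytes.

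A list of 55 other genes of these pathways, from ligands and kinases to STAT factors, negative regulators, myeloid transcription factors and target genes, was read beside the 6. Of its 35 genes measured in blood neutrophils, 4 were higher by 1.5-fold or more and 8 were lower, beside 19.5% and 18.2% of all genes. Their median log2 ratio was -0.36 against -0.02 over all genes. Bcl2l1, the survival gene of Bcl-xL, stood at 102 against 31.1 CPM (1.71, 1.26 to 2.19), and Cebpe, the factor of granule gene expression, at 42.8 against 19.97 CPM (1.10, 0.53 to 1.72). Cebpe is also among the 9 immature markers, so mature-marked cells were chosen partly by its absence. Pik3r1, a PI3-kinase subunit, stood at 86.7 against 216 CPM (-1.32, -1.52 to -1.11) and Bcl2a1b at 18.6 against 39.2 CPM (-1.08, -1.55 to -0.59). Socs3, the inhibitor of G-CSF signalling, differed little, at 278 against 341 CPM (-0.29). Over mature-marked blood neutrophils 4 of 32 were higher and 4 lower, beside 16.9% and 13.1% of all genes, with a median of -0.17 against 0.02.

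In lung neutrophils 3 of 31 measured genes of the list were higher and 2 lower, beside 18.5% and 12.7% of all genes, with a median of -0.04 against 0.02. The 4 with the largest ratios were Cbl (0.89), Jak2 (131 against 229 CPM, -0.80), Pik3r1 (0.67) and Pik3cd (-0.62), each resting on the few sham cells, and Socs3 stood at 57.6 against 70.3 CPM. In mature-marked lung neutrophils 3 of 29 were higher and 5 lower, beside 21.2% and 16.3%, with a median of -0.20 against a median of all genes at -0.00. In blood classical monocytes 3 of 37 were higher and 2 lower, beside 6.51% and 4.77% of all genes, with a median of 0.07 against 0.04. Bcl2l1 stood at 35.2 against 12.3 CPM (1.51, 0.84 to 2.24) and Socs3 at 142 against 69.9 CPM (1.02, 0.73 to 1.33), while Cebpa stood at 55.3 against 123 CPM (-1.15) and Klf4, a monocyte factor, at 153 against 258 CPM (-0.75). In lung classical monocytes none of 18 was higher, beside 4.21% of all genes, and 1 was lower, beside 4.56%. The lower gene was Klf4, at 341 against 584 CPM (-0.78), and Ptpn6 (0.52), Gab2 (0.51) and Junb (-0.50) followed it. The median was -0.02 against 0.03. Socs3 was not measured there, at 88.4 against 113 CPM.

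The genes whose level was most like that of each member were ranked by Pearson's r over 28 class and library pairs of at least 50 cells, among 6876 genes, as a description in which pairs share libraries. For Csf3r they were C5ar1 (0.98), Tnfaip2, Trem3, Trpm2 and Fpr2, and for Csf1r they were Cd68 (0.98), Cd300c2, Adgre1, Sirpb1a and Apoc2. For Csf2ra they were Igsf6 (0.98), Gdpd3, Clec12a, Klra2 and Gpr35, and for Csf2rb they were Msrb1 (0.99), Pla2g7, Ccl6, Igsf6 and Pgd. For Csf2rb2 they were Clec4a2 (0.95), Wfdc17, Chil3, Mefv and Ifitm6, and for Csf1 they were Per2 (0.95), Cd101, H2-Q10, Dmxl2 and Nlrp12. Igsf6 was among the 5 for both chains of the GM-CSF receptor.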

How the data were processed

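Single-cell RNA libraries were made from lungs and blood of 2 arms, 1 library per tissue and arm. The deposited matrices hold raw UMI counts per gene and barcode. The submitters' processing notes name Cell Ranger 7.0.0, Seurat 4.3.0.1, R 4.3.1 and the GRCm38.p6 build. No barcode in them held fewer than 500 UMIs. Each library held 112079231 to 132540945 UMIs.

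A kept cell had 200 genes or more and no more than 10% mitochondrial UMIs. Cells with a Scrublet score over 0.3 were left out as doublets (394, 689, 114 and 755 in metastasis lung, sham lung, metastasis blood and sham blood), because the automatic threshold marked 0.477% of cells in metastasis blood. A cell was given a class when at least 3 of its markers had a UMI and the next class scored under 0.5 of its score, a limit set after the data were seen; other cells were mixed or unassigned. The lists hold markers of other immune, epithelial, endothelial, stromal and melanoma cells. Counts were summed per class and library and divided by the total without 10 haemoglobin genes (CPM). Intervals are exact Poisson for sums, conditional binomial for ratios and Clopper-Pearson for shares, at 95%, and cover counting error only, since amplified molecules and cells of 1 library are not replicates. A count of 0 was given a limit of 3 UMIs. There was no test and no p-value. Called means 1.5-fold or more among genes that reached 100 UMIs in the pair of libraries and a mean of 10 CPM.

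Members were described in full in classes that held 20 or more cells in each library of a tissue and reached 50 CPM in 1 of them. For the pathway list the 4 largest measured log2 ratios and Socs3 were named, and for each member the 5 genes of highest r on log2(CPM + 10). The members and lists were chosen with earlier results of these data known. Python 3.11.15, scanpy 1.11.5, scipy 1.17.1, numpy 2.4.6, pandas 2.3.3, Biopython 1.88 and matplotlib 3.10.9 were used, and the interval code was tested on simulated data. Alternatives changed the cell filters, scaling, gate, clustering, doublets, platelet or haemoglobin cells and shared barcodes, and 4 restrictions (2 to mature-marked neutrophils, 1 to cells without platelet UMIs and 1 to a shared cluster) were added after seeing the data.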

Additional observations from a re-analysis of the deposited data

How the results depend on the processing

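No paired analysis was possible because each group holds 1 library, and no library could be left out. Over 33 log2 ratios, 342 of 373 alternative values lay within the counting interval of the reported value and 31 lay outside. The sign was opposite in 22 alternatives, of which 21 concern ratios whose interval spans zero, among them Csf1r, Csf2ra and Csf2rb of lung neutrophils or monocytes and Csf2ra of blood classical monocytes (0.134 without platelet or haemoglobin cells). In blood neutrophils Csf3r was -1.42 without cells with a platelet UMI or over 5% haemoglobin, -1.35 with haemoglobin counted, -0.96 as a mean of each cell's CPM, and -0.76 and -0.41 in mature-marked cells and those with a margin of 0.4, and after leaving out cells with a platelet UMI whatever their haemoglobin, and in the cluster that both blood libraries fill, it was -1.44 and -0.37, the last 4 chosen after seeing the data. Csf1 in the same order was -1.59, -2.01, -1.38, -1.32, -0.68, -1.66 and -0.66. Csf2rb was 0.33 in that cluster. Csf1r in blood neutrophils turned to 0.014 with a margin of 0.4. Csf1r in blood classical monocytes was -0.15 in Leiden clusters, -0.24 without platelet or haemoglobin cells and -0.27 without platelet UMIs alone. Genes at least 1.5-fold lower in lung neutrophils numbered 207 with haemoglobin counted, and genes higher in blood neutrophils numbered 666 without platelet or haemoglobin cells. Csf2rb ranged from 0.68 (without platelet UMIs alone) to 1.04 in blood classical monocytes, 0.99 to 1.23 in lung non-classical monocytes and 0.33 to 0.63 in blood neutrophils. The cause of each change was not tested. Thinning to 1000 UMIs, with cells under that depth left out, moved 47 of 50 shares. The 53 neutrophils of sham lung limit every lung neutrophil ratio.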
